A study of Mus musculus with 6 samples.

Results

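The 9 genes described here encode the proteins that complete base excision repair once a glycosylase has removed a base: Apex1, Apex2, Parp1, Parp2, Xrcc1, Polb, Fen1, Lig1 and Lig3. They are 9 of the 19938 named genes measured, and each had a row of its own on the array, shared with no other gene. RNA was measured in 2 groups of E14, an embryonic stem cell line of the mouse: Tdg knockdown cells (3 arrays) and control cells (3 arrays). The protocol given for all 6 samples is lentiviral infection, with a multiplicity of 10, and puromycin at 2 ug/ml from 48 h on, in medium with 15% serum and leukemia inhibitory factor at 1000 units/ml. What the vector of the control cells carried is not given in the sources used here. Nor do the labels say whether replicates were grown apart, so the p-values rest on the spread between 6 arrays that may be technical repeats.

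Tdg encodes thymine DNA glycosylase, which cuts thymine out of mismatches and removes 5-formylcytosine and 5-carboxylcytosine, the further oxidation products that TET enzymes make from methylated cytosine. What it leaves is a site without a base. APE1, the product of Apex1, cuts the strand beside that site, PARP1 and PARP2 bind the break and mark it with poly(ADP-ribose), and the scaffold XRCC1 gathers the enzymes that follow. In the short-patch branch DNA polymerase beta (Polb) fills the gap and ligase III (Lig3) closes it. In the long-patch branch a longer stretch is made, FEN1 cuts off the displaced flap and ligase I (Lig1) seals the nick.

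All values are log2 signals as deposited, and a difference is Tdg knockdown minus control on that scale. The brightness of a row depends on its probes, so levels are not compared between genes. The Tdg signal, read from 4 rows that the annotation shares with the pseudogene Tdg-ps2, averaged 8.11 ± 0.16 in knockdown cells and 11.14 ± 0.05 in control cells (SD, n = 3 each), a difference of -3.03 (limma, adjusted p = 8.79e-05, exact permutation p = 0.1). The stem cell markers Pou5f1, Nanog, Sox2, Zfp42, Esrrb, Klf4, Tdgf1 and Dppa5a had group means of 10.49 to 13.32 in knockdown and 10.40 to 13.35 in control cells, above the array medians of 7.41 to 7.48, and 0 of the 8 passed the test. Of the 18 markers of fibroblasts, endoderm, trophoblast and neuroectoderm, Pax6 was the only one past the threshold, at 9.02 ± 0.17 in knockdown and 8.09 ± 0.07 in control cells (SD, n = 3 each). With the replicate number as a block 2 more passed, both lower in knockdown cells: Krt8 at 11.03 ± 0.12 in knockdown and 11.40 ± 0.14 in control cells (adjusted p = 0.150 by limma, blocked 0.0329), and Nes at 8.81 ± 0.23 in knockdown and 9.41 ± 0.09 in control cells (0.0845, blocked 0.0246). The group means of the 4 marker lists ran from 3.94 (Lum) to 11.03 (Krt8) in knockdown and from 3.82 (Lum) to 11.40 (Krt8) in control cells, and their part in the results below was not tested. Some of these markers also lay above the array medians. Among the fibroblast genes Thy1 (8.75 in knockdown, 8.73 in control cells) and Col1a1 (8.36 and 8.37) did, while Lum and Dcn lay below. Knockdown replicate 3 stood apart from the other arrays on the first principal component, which held 58.6% of the variance. The fibroblast markers Col1a1, Col1a2, Col3a1, Lum and Dcn had their highest value in that array, and Thy1 did not. Whether this bears on the results below was not tested.

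The sequence at the gene starts is shown first, because the enzyme that was knocked down acts on CG sites and because the windows of these genes had a stretch of letters in common. RefSeq windows (build GRCm38.p6) of 300 bases, 250 before the start of transcription and 50 after it, were at hand for 7 of the 9 genes, in 10 windows, since Fen1 has 2 annotated starts and Lig1 has 3. The 6-letter palindrome CACGTG, which reads the same on both strands and is the core recognised by E-box factors such as USF and MYC, was present for Apex1, Fen1, Lig1, Lig3, Parp1 and Parp2 and not for Xrcc1. The search for it was chosen after these windows had been read. The copy nearest to the start is printed below in capitals with up to 12 bases on each side, on the strand of the gene.
Apex1, chr14:50924937-50924966, plus strand: gagccctcgaatCACGTGaccacaccaatc
Fen1, chr19:10203922-10203951, minus strand: cgcctggcagatCACGTGacgagagcgcgg
Lig3, chr11:82781076-82781105, plus strand: agaacagcgaccCACGTGgcgaccggaggg
Parp1, chr1:180568830-180568859, plus strand: acctcccaaggaCACGTGctgaagccccgc
Parp2, chr14:50807725-50807754, plus strand: acacgcactcagCACGTGgccccgctgatg
Lig1, chr7:13277199-13277224, plus strand: gctgtacttgagCACGTGgataagcc

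Apex1 held 3 copies in its window and the other 5 genes 1 each. The first base of the printed copy lay 18 bases before the start in Fen1, 21 before it in Lig3, 49 before it in Parp1 and 179 before it in Parp2, while in Apex1 it was the first transcribed base and in Lig1 base 37 after the most upstream of the 3 starts. The other 2 windows of Lig1 and the other window of Fen1 held none. Over all genes with such a window 8.09% held CACGTG, and of the windows with at least 18 CG sites 11.6% did. Of these genes' 7 windows with at least 18 CG sites 5 held it. That cutoff equals the count in the Fen1 window with the motif and was applied after the windows had been read. The upper quartile over all windows was 20, above the counts in the motif windows of Fen1 (18) and Lig3 (19). The comparison at 18 is therefore a description and no independent check. Among the other genes of base excision and single-strand break repair it was found in 3 of 38. The windows of the 7 genes held between 5 and 31 CG sites, the fewest in the Lig1 window printed above and the most in Apex1, where the median over all windows was 7. The changes of named genes with and without the motif lay close together, with a median of 0.01 for 1483 genes with it and 0.02 for 14131 without. Of those with it 0.877% were called, and of those without it 0.722%. A match is a run of letters and not a binding site.

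None of the 9 genes passed the test at an adjusted p of 0.05, in either direction, against 0.792% of all named genes (158 of 19938, or 614, which is 3.08%, with the replicate number as a block, where 0 of the 9 passed too). The 9 differences ran from -0.21 to 0.24 with a median of -0.04, where the median of all named genes was 0.02. At an unadjusted p under 0.05 there were 3 of the 9, against 12.5% of all named genes: Fen1 and Apex1 above 0, where 5.03% of all named genes were, and Parp2 below 0, where 7.48% were. The same 3 were those whose groups did not overlap, against 19% of all named genes (7.98% upward and 11% downward). With 9 genes these shares are a description. Of the other settings tried, only array weights called any of the 9, with 5 calls where 44.9% of all named genes were called. Across the 9 genes the 95% intervals reached from -0.45 at the lowest bound to 0.46 at the highest, so a change of 1.5-fold lay outside each of the 9 intervals. These intervals are not adjusted for the number of genes. In bulk RNA, less RNA per cell and fewer cells that make it cannot be told apart.

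**Figure D1:**
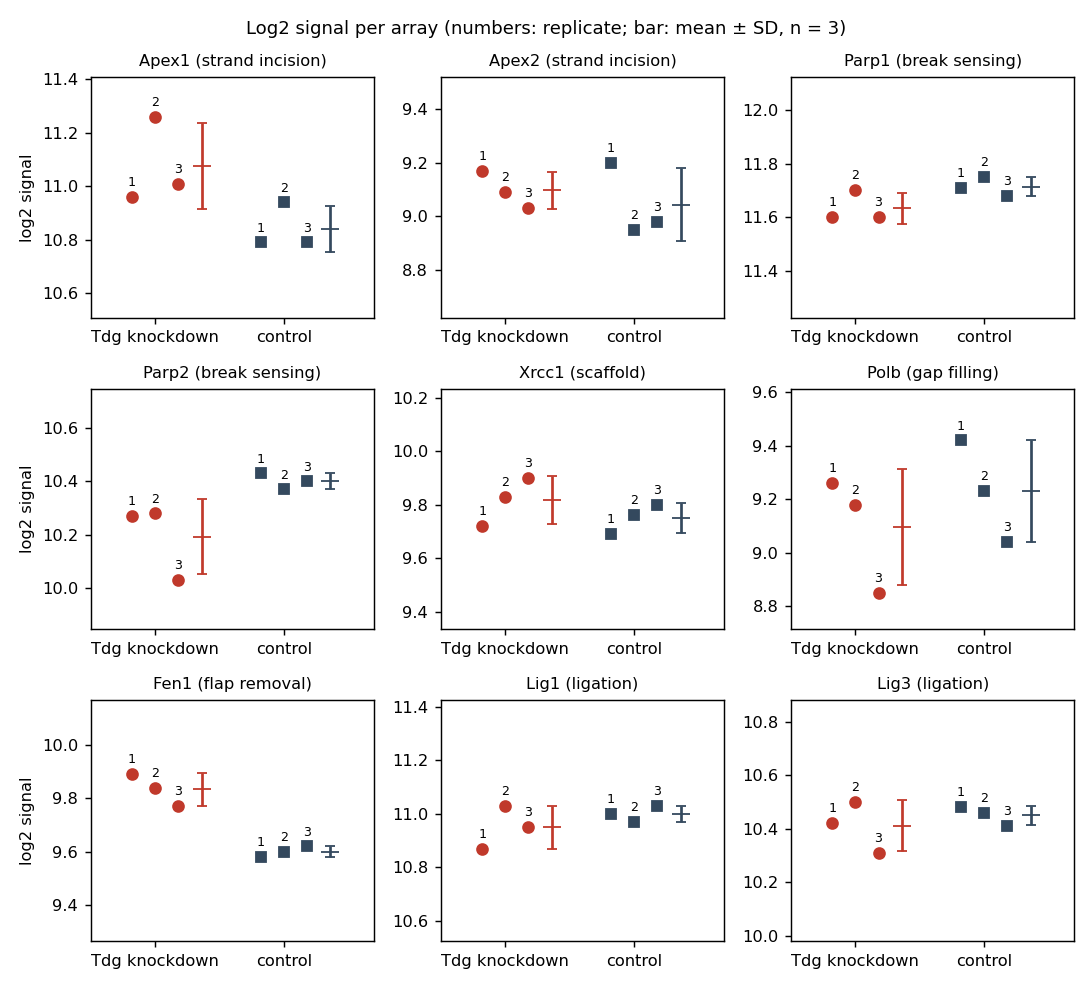
Log2 signal of each of the 9 genes in every array, with Tdg knockdown (red circles) left of control (blue squares); numbers give the replicate, horizontal marks with bars the mean ± SD (n = 3), and each vertical axis spans the same 0.9 log2 units. The groups lie apart for Apex1, Parp2 and Fen1 and overlap for the other 6 genes.

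Strand incision is the step that TDG's product needs first. Apex1, which encodes the main endonuclease at sites without a base and also acts as a redox factor, had 10.96, 11.26 and 11.01 in knockdown arrays, against 10.79, 10.94 and 10.79 in control arrays. Every knockdown array was above every control array, though the lowest knockdown value exceeded the highest control value by only 0.02. The difference was 0.24 (SE 0.10, 95% interval 0.01 to 0.46), or 1.18-fold, with a limma adjusted p = 0.376 and an exact permutation p = 0.1, the smallest that 3 arrays against 3 allow. Its size rested in part on knockdown replicate 2, since it was 0.145 without that array. Between arrays of the same number the Apex1 difference was 0.17, 0.32 and 0.22. With the replicate number as a block its limma p was 0.0062 before and 0.0885 after adjustment, the smallest of the 9 genes in that fit. Apex2 encodes a related nuclease that trims 3′ ends and has weak activity at sites without a base. It had 9.17, 9.09 and 9.03 in knockdown arrays, against 9.20, 8.95 and 8.98 in control arrays. The groups overlapped, because control replicate 1 was the brightest of the 6 arrays, and the difference was 0.05 (SE 0.09, 95% interval -0.15 to 0.26, adjusted p = 0.857 by limma). It ran from 0.0067 without control replicate 2 to 0.132 without control replicate 1.

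Both break-sensing genes had knockdown means below control, and neither passed the test. Parp1, which encodes the enzyme that makes most of the poly(ADP-ribose) at DNA breaks, had 11.60, 11.70 and 11.60 in knockdown arrays, against 11.71, 11.75 and 11.68 in control arrays. Knockdown replicate 2 lay between the control arrays, so the groups overlapped, and the difference was -0.08 (SE 0.06, 95% interval -0.23 to 0.07, adjusted p = 0.694 by limma). Parp2, whose product can stand in for part of the work of PARP1, had 10.27, 10.28 and 10.03 in knockdown arrays, against 10.43, 10.37 and 10.40 in control arrays. All 3 knockdown arrays were below all 3 controls, and replicate 3, the array that stood apart over all genes, was the lowest. The difference was -0.21 (SE 0.08, 95% interval -0.40 to -0.01, adjusted p = 0.373 by limma, exact permutation p = 0.1), and without knockdown replicate 3 it was -0.125. Between arrays of the same number it was -0.16, -0.09 and -0.37. With the replicate number as a block the limma p of Parp2 was 0.0266 before and 0.170 after adjustment.

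Xrcc1 encodes a scaffold with no enzyme activity of its own that binds Polb, Lig3 and the poly(ADP-ribose) at a break. It had 9.72, 9.83 and 9.90 in knockdown arrays, against 9.69, 9.76 and 9.80 in control arrays. The values of the groups interleaved, and the difference was 0.07 (SE 0.07, 95% interval -0.10 to 0.24, adjusted p = 0.781 by limma). It ran from 0.025 without knockdown replicate 3 to 0.115 without knockdown replicate 1. Within each replicate number the knockdown array was higher, by 0.03, 0.07 and 0.10.

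Gap filling by DNA polymerase beta is the step at which the short-patch branch parts from the long-patch one. Polb had 9.26, 9.18 and 8.85 in knockdown arrays, against 9.42, 9.23 and 9.04 in control arrays. It was the most variable of the 9 genes, with a residual SD of 0.20 where the other 8 lay between 0.045 and 0.129, and in both groups the array numbered 1 was the highest and the array numbered 3 the lowest. The groups overlapped and the difference was -0.13 (SE 0.14, 95% interval -0.45 to 0.19, adjusted p = 0.769 by limma). Between arrays of the same number it was -0.16, -0.05 and -0.19, and with the replicate number as a block the limma p was 0.0582 before and 0.243 after adjustment. Without knockdown replicate 3 the difference was -0.01.

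Fen1 encodes the nuclease that removes the flap in the long-patch branch and also trims Okazaki fragments in DNA replication. It had 9.89, 9.84 and 9.77 in knockdown arrays, against 9.58, 9.60 and 9.62 in control arrays. The control arrays lay within 0.04 of each other and every knockdown array was above them, by at least 0.15. The difference was 0.23 (SE 0.06, 95% interval 0.09 to 0.38), or 1.18-fold, with the smallest limma p of the 9 genes, 0.00658 before and 0.162 after adjustment over all named genes (exact permutation p = 0.1). It was the steadiest of the larger differences, between 0.205 and 0.265 with each array left out in turn. Between arrays of the same number the Fen1 difference was 0.31, 0.24 and 0.15. With the replicate number as a block its limma p was 0.00693 before and 0.0933 after adjustment, both larger than those of Apex1. The 3 named genes whose pattern over the 6 arrays came closest to that of Fen1, by the mean absolute difference of their deviations from their own means, were Napepld (0.0089), Bmp4 (0.017) and Il17d (0.018). Their differences of 0.25, 0.21 and 0.24 had adjusted p of 0.143, 0.204 and 0.132 by limma. A choice by likeness over the same arrays fixes these values near those of Fen1, so they are no separate result.

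Both ligase genes had overlapping groups. Lig1, which seals nicks in long-patch repair and in replication, had 10.87, 11.03 and 10.95 in knockdown arrays, against 11.00, 10.97 and 11.03 in control arrays. Knockdown replicate 2 equalled the highest control, and the difference was -0.05 (SE 0.07, 95% interval -0.21 to 0.11, adjusted p = 0.821 by limma), or -0.01 without knockdown replicate 1 and -0.09 without knockdown replicate 2. Lig3, the partner of XRCC1 and also the ligase of mitochondrial DNA, had 10.42, 10.50 and 10.31 in knockdown arrays, against 10.48, 10.46 and 10.41 in control arrays. The lowest and the highest of the 6 values were both knockdown arrays, and the difference was -0.04 (SE 0.07, 95% interval -0.21 to 0.13, adjusted p = 0.868 by limma).

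**Figure D2:**
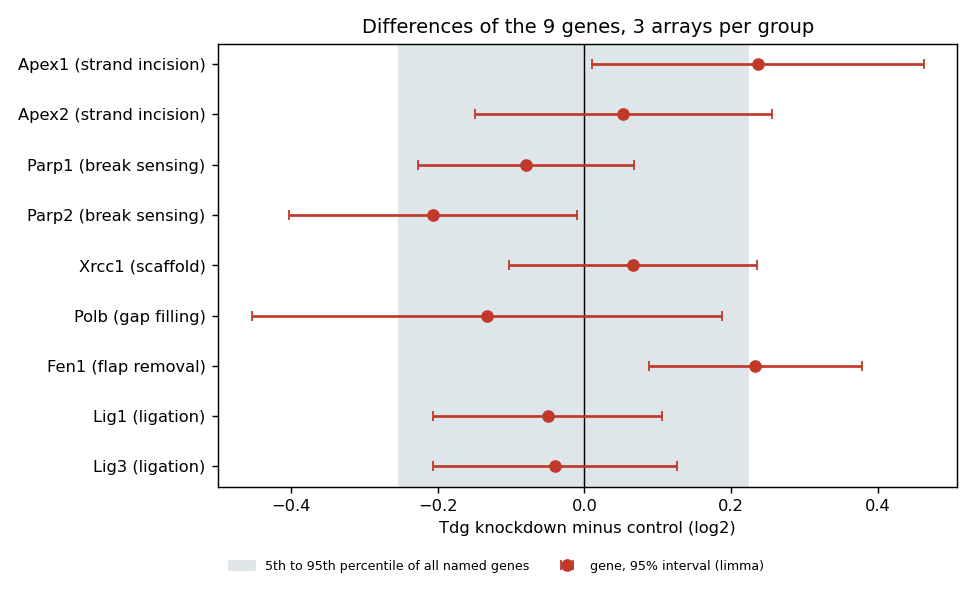
Difference in log2 signal, Tdg knockdown minus control, for the 9 genes in the order of the repair steps, with 95% intervals from limma (3 arrays per group); the shaded band spans the 5th to the 95th percentile of the differences of all named genes, -0.25 to 0.22. The points of Apex1 and Fen1 lie just above the band, and the intervals of Apex1, Parp2 and Fen1 do not cross 0.

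Genes that share a step or take alternative branches were set against each other within each array. The difference of Apex1 exceeded that of Apex2 by 0.18 (SE 0.16, exact permutation p = 0.5), a value that ran from 0.08 without control replicate 1 to 0.28 without control replicate 2 and was 0.0883 without knockdown replicate 2. Parp1 lay less far below control than Parp2, with differences of -0.08 and -0.21, which are 0.13 apart (SE 0.08, p = 0.2 by the same exact test), or 0.0617 apart without knockdown replicate 3. Lig1 and Lig3 differed in their change by -0.01 (SE 0.07, exact permutation p = 1). The difference between Fen1 and Polb, the flap nuclease of the long-patch branch and the polymerase of the short-patch branch, was 0.63, 0.66 and 0.92 in knockdown arrays, against 0.16, 0.37 and 0.58 in control arrays. The groups did not overlap, and the change was 0.37 (SE 0.15, exact permutation p = 0.1, or 0.4 adjusted over the 4 pairs). With 3 arrays against 3 the exact test cannot give less than 0.1. None of the 4 pairs could therefore pass at 0.05, and the test decides nothing about them. Between arrays of the same number, a reading added after the data were seen, the change of Fen1 minus Polb was 0.47, 0.29 and 0.34 (paired SE 0.05). That of Apex1 minus Apex2 was 0.20, 0.18 and 0.17 (paired SE 0.0088), that of Parp1 minus Parp2 0.05, 0.04 and 0.29, and that of Lig1 minus Lig3 -0.07, 0.02 and 0.02. The exact sign-flip test over 3 same-numbered differences gave p = 0.25, the smallest it can give, for each of these but Lig1 minus Lig3 (p = 1).

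**Figure D3:**
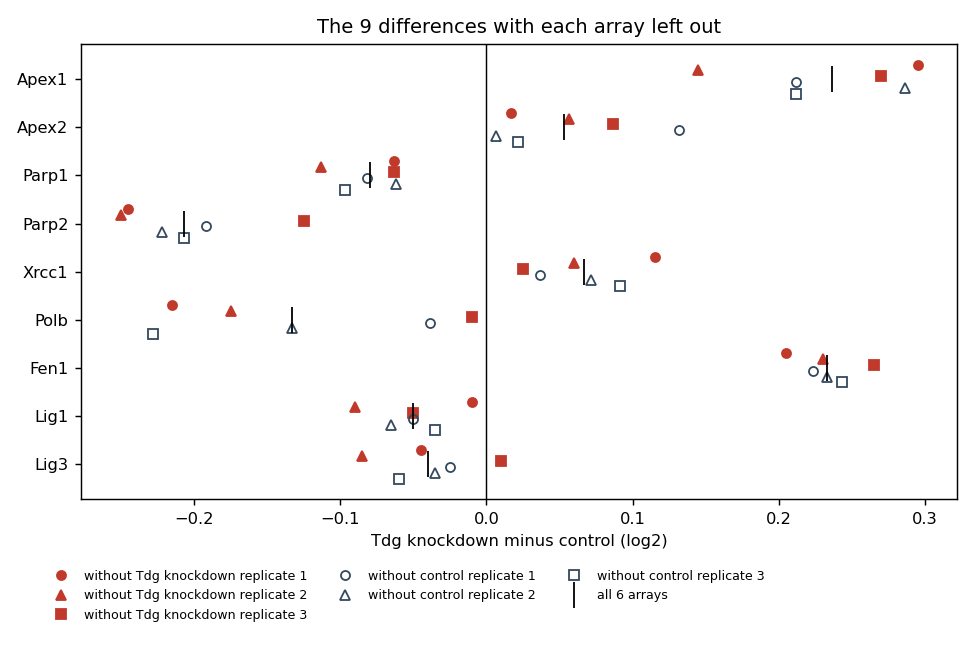
Difference in log2 signal, Tdg knockdown minus control, for each of the 9 genes with all 6 arrays (vertical marks) and with 1 array left out (red filled symbols without a knockdown array, blue open symbols without a control array). Fen1 stays between 0.205 and 0.265, Polb runs from -0.23 to -0.01, and Lig3 crosses 0 without knockdown replicate 3.

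By array, the median of the 9 genes relative to their control means was -0.03, 0.05 and -0.05 in the 3 knockdown arrays. Knockdown replicate 2 had 6 of the 9 genes above the control mean and knockdown replicate 3 had 6 below it. The spread over all named genes was widest in that last array, with an SD of 0.22 for deviations from the mean of the arrays, against 0.11 to 0.14 in the other 5. The median residual SD of the 9 genes was 0.075, where that of all named genes was 0.109.

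The wider pathway was read from 46 other genes of base excision and single-strand break repair, each with a row of its own. None passed the test in either direction, with a median difference of -0.03 and a range of -0.22 to 0.15, and 0 passed with the replicate block. At an unadjusted p under 0.05 there were 4 of the 46, against 12.5% of all named genes. The 1 above 0 was Rpa2 (0.15, adjusted p = 0.387 by limma), a subunit of the complex that coats single-stranded DNA. The 3 below 0 were all glycosylases: Mpg, which removes alkylated bases (-0.22, adjusted p = 0.222), and Neil1 (-0.20, 0.373) and Neil2 (-0.15, 0.396), which remove oxidised bases. Of the 10 glycosylases 8 lay below 0, with a median of -0.135, where 8875 of all 19938 named genes lay below 0. Exo1, a nuclease of mismatch repair and end resection, had the second smallest p among the genes above 0 (0.13, adjusted p = 0.531).

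Genes of the clamp and its loader, which serve long-patch synthesis beside Fen1 and Lig1, lay closer to 0 than Fen1. Not all of them lay closer than Lig1 (-0.05). The clamp gene Pcna differed by 0.07 (SE 0.06), and the 6 genes of that step ran from -0.07 to 0.08. Of the 9 polymerase genes 8 lay below 0, with a median of -0.03, against 8875 of all 19938 named genes. Direction was not tested by class. Pold4, a small subunit of polymerase delta, had groups that did not overlap (7.76, 7.98 and 8.01 in knockdown arrays, against 8.04, 8.15 and 8.15 in control arrays). In all, 2 genes of the 46 had groups apart upward (Rpa2 and Exo1) and 4 downward (Mpg, Neil2, Pold4 and Aptx), against 19% of all named genes in either direction.

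**Figure D4:**
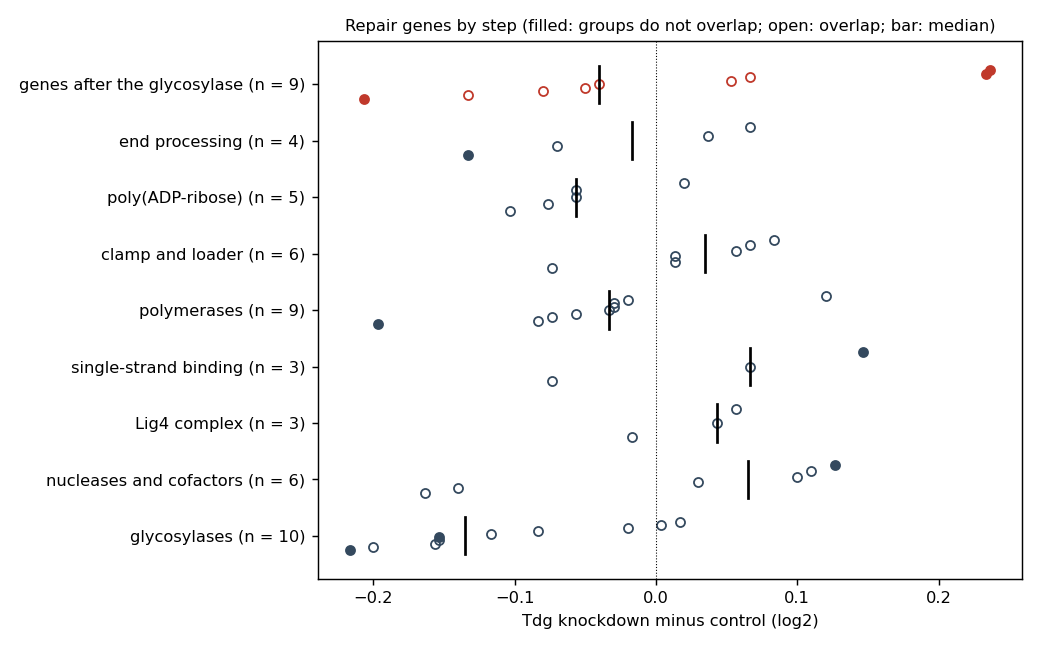
Difference in log2 signal, Tdg knockdown minus control, for the 9 genes after the glycosylase (red) and 46 other repair genes by step (blue); filled points have groups that do not overlap, open points overlap, and vertical bars are medians. Every point lies between -0.22 and 0.24, and the glycosylases have the lowest median, -0.135.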

How the data were processed

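The deposited table holds log2 signals with 2 decimals, 1 per probe set and array, between 2.26 and 14.03. Per the submitters' processing notes the authors made these log2 values with Affymetrix Expression Console; neither its version nor the summarisation and normalization is given in the sources used here, and the scale was read off the values. The extraction protocol in the labels names Kdm2b knockdown cells where the titles and design name Tdg. Precision is limited by the number of arrays.

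Of 35557 rows, 21789 list 1 gene. Where a gene had more than 1 such row, the row brightest on average was kept. Adprs was matched under its RefSeq symbol Adprhl2. Groups were compared by limma 3.58.1 (R 4.3.3; lmFit, eBayes, two-sided), with Benjamini-Hochberg adjustment over all 19938 named genes. Exact two-sided permutation tests used scipy 1.17.1. The genes named are the 9, Tdg, of the pathway list those past the threshold or else the 2 with the smallest p in each direction, and the 3 genes most like the one with the smallest p. Neil2, Pcna, Pold4 and Aptx, the markers Pax6, Krt8 and Nes, and the fibroblast markers were singled out after their values were seen. Members and lists were chosen with earlier results of these data known.

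Deviations from group means correlated across genes at 0.61, 0.23 and 0.70 between arrays with equal replicate numbers, all over 0.1. Knockdown replicate 2 correlated more with control replicate 1 (0.44) than with control replicate 2. The other pairs with unequal numbers ran from -0.64 to -0.05. Deviations within a group sum to 0, which ties these correlations to each other. For that reason the replicate number was tried as a block, but only as an alternative. The main limma fit and the exact permutation tests left the arrays unpaired. The SEs, intervals and adjusted p given without mention of a block or pairing therefore take no account of it. What links arrays of the same number is not given. In simulated data over 19938 genes the procedure called 1.2% of genes changed by 0.25, 43.6% at 0.5, 84.0% at 1 and 98.4% at 2 (log2), and 4.4% of calls were false. Each of the 5 runs had 200 changed genes, picked at random. The noise was independent and normal at each gene's own residual SD. It held no effect shared between arrays and no array with a wider spread. Alternatives were the replicate block, quantile normalization, median centring, leaving out the dimmest 0.333 of genes, a trended robust prior, array weights, averaging the rows of each gene, testing every row, a minimum fold of 1.5 and leaving out each array. Leaving out both arrays numbered 3 was added after seeing the data.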

Additional observations from a re-analysis of the deposited data

How the results depend on the processing

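The count of 0 among the 9 genes held with each array left out and under every other alternative except array weights, where 5 of the 9 passed, with 27 of the 46 other repair genes and 8946 of all named genes, 44.9%. There limma reported that the weights did not converge; they ran from 0.13 for knockdown replicate 3 to 8.56 for knockdown replicate 1. In that fit Apex2 (0.20, adjusted p = 0.0066), Parp1 (-0.14, 0.0065), Parp2 (-0.11, 0.0200), Fen1 (0.29, 0.00018) and Lig1 (-0.10, 0.0402) passed, Xrcc1 (-0.0296) and Polb (0.0189) changed sign, and so did the pairs Apex1 minus Apex2 (-0.14) and Parp1 minus Parp2 (-0.0292). Under the other 8 settings with all genes refitted, array weights and single left-out arrays aside, Fen1 lay between 0.23 and 0.28 with adjusted p from 0.0710 to 0.331, and none of the 9 changed sign. With 1 array left out, Lig3 ran from -0.085 to 0.01, above 0 only without knockdown replicate 3, Lig1 minus Lig3 ran from -0.06 to 0.035, and the adjusted p of Fen1 ran from 0.0911 to 0.564. The count over all named genes was 614 with the replicate block, 444 without the dimmest 0.333 of genes, 446 with a trended robust prior, 17 with all 35557 rows tested and 75 at a fold of at least 1.5. With 1 array left out it ran from 0 to 290. Leaving out control replicate 1, 2 or 3 gave limma counts of 0, 0 and 15, and leaving out knockdown replicate 1, 2 or 3 gave 0, 4 and 290. Where the count was 0, unadjusted p under 0.05 were found for 1682, 1510 and 1959 genes. Beside the counts, the replicate block changed the calls of the markers Krt8 (adjusted p 0.0329) and Nes (0.0246) and no other call given in the text. Changes of 0.25 were seldom recovered in simulated data (1.2%). That rate is over genes of every spread and is not the rate for these 9. Their median residual SD was 0.075, against 0.109 for all named genes. Signal over background was not analysed here.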
